A study of Homo sapiens with 4 samples.

Results

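The ELF5 peaks described here lie in 16q24.1 to 16q24.3, the last 3 bands of the long arm of chromosome 16. They are the peaks of 1 list on hg19 whose summit falls between 84200 and 90355 kb, without the windows 85800 to 85875, 88835 to 88915 and 89595 to 89665 kb, which held 88 peaks and were left out. This gave 1674 members of 115384 peaks in the list. Of these, 371 lay in a long cluster in 16q24.1, with member summits from 85241117 to 85881551, called cluster 1 here. Another 281 lay in a long cluster across 16q24.2 and 16q24.3, with member summits from 88668475 to 89267008, called cluster 2. The other 1022 members are called the rest of the region. The members were chosen by the position of their summits, and the clusters were selected on the number and spacing of peaks in this same list, so number and spacing are given as a description.

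ELF5 is a transcription factor of the ETS family, whose members recognise DNA around a GGAA core. It is best known for directing the alveolar fate of luminal progenitors in the mammary gland, where it acts downstream of prolactin and progesterone signalling. A factor of this kind leaves narrow peaks in ChIP-seq, the sequencing of DNA that is pulled down with an antibody. The height of a peak is usually given as fold enrichment, the pileup of fragments at the summit over the local background.

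Genes of these bands include, in the order of the RefSeq table for GRCh38.p14, COTL1, USP10, GSE1, IRF8, FOXF1, FOXC2, FOXL1, MAP1LC3B, SLC7A5, BANP, ZFPM1, ZC3H18, PIEZO1, CBFA2T3, CDH15, ANKRD11 and TUBB3. IRF8 is a factor of myeloid and lymphoid cells, and FOXF1, FOXC2 and FOXL1 are neighbouring forkhead genes of mesenchymal and lymphatic development. MAP1LC3B makes an autophagosome protein, SLC7A5 an amino acid transporter, ZFPM1 a cofactor of GATA factors, PIEZO1 a mechanosensitive channel, CDH15 a cadherin of muscle and TUBB3 a tubulin of neurons. These names are background on the bands only. No gene position on hg19 was used here, so no peak was assigned to a gene and no sequence is shown.

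All samples were of T47D, a human breast cancer cell line labelled as luminal A epithelium, untreated and kept in RPMI with fetal bovine serum and insulin. There were 3 replicates of ELF5 ChIP and 1 input, and separate cultures are not stated. The list gives each peak 1 value, with replicates not separated and without stating which of them were used. Replicate error is therefore unknown, no test was made, and the intervals below cover counting error only. Sequencing depth per sample is unknown here.

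Most members were weak peaks. Their median fold was 3.12, against 3.66 in the whole list, and 72 of the 1674 were strong, meaning among the highest 10% of folds in the list, which begins at a fold of 11.99. That is 4.30% of the members (Wilson 95% interval 3.43 to 5.38), beside 10.0% of the whole list and 9.27% of all peaks on chromosome 16. The share was below the list's in cluster 1, with 20 strong peaks (5.39%, interval 3.52 to 8.18), in cluster 2, with 11 (3.91%, 2.20 to 6.87), and in the rest, with 41 (4.01%, 2.97 to 5.40). These 3 intervals overlap, so the clusters could not be told from the rest by this share. For cluster 1 the call depended on the measure: among the highest 10% by the authors' p, which again hold 10.0% of the list, its share was 9.43% (6.86 to 12.8), an interval that includes the list's. By p the shares were 4.63% (2.72 to 7.75) in cluster 2 and 5.38% (4.16 to 6.94) in the rest. Just above the threshold lay 2 members with a fold of 12.08, 1 in cluster 2 and 1 in the rest, and just below it 1 member of the rest at 11.93 and 1 of cluster 1 at 11.87.

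**Figure D1:**
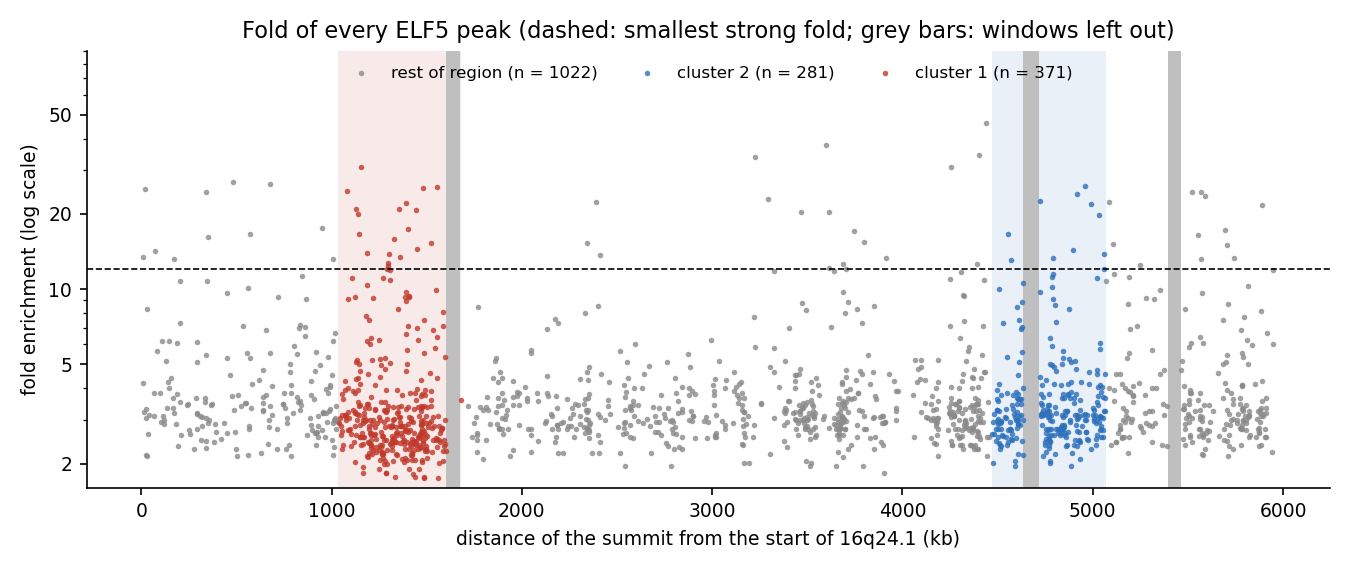
Fold enrichment of each of the 1674 members (log scale) against the distance of its summit from the start of 16q24.1 in kb, coloured by group, with the clusters shaded, the left-out windows in grey and the smallest strong fold dashed. The dots are densest in the 2 clusters, and those of cluster 1 reach lower folds, down to 1.75.

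Cluster 1 held 650 peaks per Mb of its 571 kb, counted without the left-out window (exact Poisson 95% interval 585 to 719), against 211 per Mb in the rest (198 to 225). Neighbouring summits were a median of 993 bp apart, with an interquartile range from 578 to 1755 bp, and the largest step was 9954 bp. In the rest, the median distance was 2190 bp and the largest 78692 bp. Peaks covered 25.2% of the bases of cluster 1 and 6.11% of the rest. There were 35.0 strong peaks per Mb in cluster 1 (21.4 to 54.1) and 8.47 in the rest (6.08 to 11.5).

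Cluster 1 stood apart in its local background, the number of fragments against which the fold of a peak is set. The background, recovered from the fold and p of each peak, had a median of 8.07 fragments in cluster 1, 3.65 in cluster 2, 3.78 in the rest and 3.11 in the whole list. A background of at least 5 was found at 12.2% of the list's peaks, at 11.0% of cluster 2 and 13.6% of the rest, and at 87.3% of cluster 1. The pileup at the summit was higher as well, with a median of 27 fragments in cluster 1 and 15 in both cluster 2 and the rest. The fold, the ratio of the pileup scaled by 0.910 to the background with 1 added to both, was lower, with a median of 2.84 (95% interval 2.74 to 2.96) in cluster 1, 3.12 (3.03 to 3.20) in cluster 2 and 3.22 (3.17 to 3.29) in the rest. Both the background and the density of peaks were higher in cluster 1 than in the rest, and the part of the background in the cluster's length was not tested.

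The high background did not span all of cluster 1. Its first 71 members, over 143 kb, had backgrounds of 3.09 or more, and 46 of them were under 5. The background was 4.25 at the summit at 85377561 and 5.13 at the next, 85378557. From there 299 members in a row, up to the edge of the left-out window, had backgrounds from 5.13 to 18, over 421 kb. In the left-out window, the last summit of this height was at 85816358, with a background of 8, and the summit at 85828563 was back at 4.08. The start was not a single step, since 25 of the first 71 members were already at 5 or more, up to 11, with 11 of them in a row. Outside cluster 1, the longest run of members with a background of at least 5 was 3 in the rest and 2 in cluster 2. This raised stretch was marked out after its values had been seen, and its limits are a description.

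**Figure D2:**
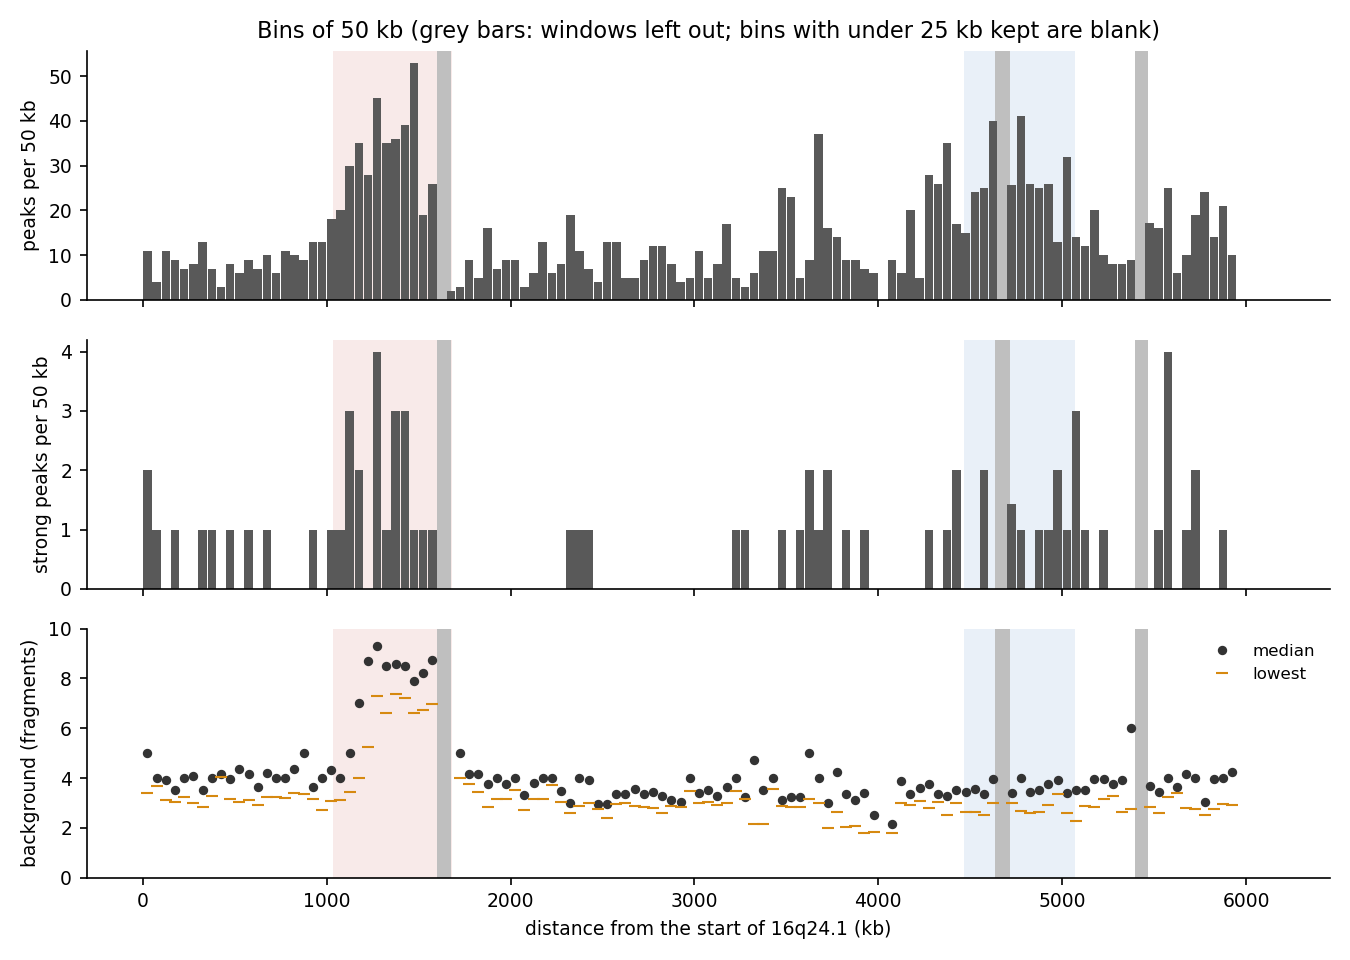
Peaks, strong peaks and background in bins of 50 kb along the region, by distance from the start of 16q24.1 in kb; dots give the median and dashes the lowest background of bins with at least 3 members. In cluster 1 the median background rises from 4.03 in its lowest full bin to 9.31 in its highest, while the full bins of cluster 2 have medians from 3.38 to 4.

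The members before the raised stretch were also dense, but less so. They numbered 498 per Mb, which is 2.36 times the density of the rest, and the raised stretch held 709 per Mb, 3.36 times. The median fold was 3.13 before the stretch and 2.79 within it. Strong peaks made up 7.04% of the first part (5 of 71, interval 3.05 to 15.4) and 5.02% of the raised stretch (15 of 299, 3.06 to 8.11), intervals that overlap. There were 35.1 strong peaks per Mb before the stretch and 35.6 within it. Ranked by the authors' p in place of the fold, 30 of the 299 members in the raised stretch were among the highest 10% (10.0% of the list), and 5 of the 71 before it. At a given fold, a higher pileup gives a smaller p.

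The peak of highest fold in cluster 1 lay before the raised stretch, from 85355447 to 85356041 on chromosome 16. It had a fold of 30.7 (exact Poisson 95% counting interval 26.9 to 34.9), from a pileup of 235 over a background of 6. The next reached 25.6 (22.7 to 28.7) at 85753750 to 85754191, and its pileup, 280 over a background of 9, was the largest of all members. It was the member of cluster 1 with the smallest p, and ranked 105th in the whole list by p but 2836th by fold. The peaks at 85678573 to 85679380 and 85279311 to 85279723 followed with folds of 25.4 (22.3 to 28.8) and 24.7 (20.4 to 29.6). Both folds are alike, yet the first rests on a pileup of 238 over 7.56 and the second on 114 over 3.24. The fifth, from 85589947 to 85590963, had a fold of 22.1 (19.2 to 25.2). The counting intervals of the second to the fifth overlapped, and that of the first overlapped those of the second to the fourth. The order within these overlaps was not resolved.

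Peaks of at least 2000 bp make up 0.448% of the list, and there were 12 among the members, 6 in cluster 1, 4 in cluster 2 and 2 in the rest. All 6 of cluster 1 lay in the raised stretch, which held 299 of the cluster's 371 members. The widest, from 85643578 to 85648397, covered 4820 bp with a fold of 20.7 (18 to 23.6) and ranked 3rd by width in the whole list. Another strong peak, from 85649404 to 85650542, followed it at a fold of 14.4. A run of 4 strong peaks lay between 85491871 and 85500207, with folds from 12.08 to 13.8 and widths from 639 to 2477 bp. Median widths were 263 bp in cluster 1 (95% interval 243 to 283), 228 in cluster 2 (207 to 245) and 204 in the rest (199 to 213).

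Cluster 2 was dense at a median background of 3.65 fragments, near the 3.78 of the rest and above the 3.11 of the whole list. It held 540 peaks per Mb of its 520 kb (479 to 607), 2.56 times the density of the rest, with a median of 1107 bp between neighbouring summits and an interquartile range from 640 to 2269 bp. There were 21.2 strong peaks per Mb (10.6 to 37.9), an interval that overlaps that of the rest. The ratio of this density to that of the rest was 2.50, with a counting interval of 1.16 to 4.95, above 1. The cluster was selected on its density, so this ratio is a description. Its backgrounds ran from 2.30 to 9, and 250 of its 281 members were under 5, as were 87.8% of the list. Backgrounds under 3.5 were found at 40.6% of its members and at 58.2% of the list's peaks. The authors' q was under 0.05 for 211 of its members, or 75.1%, against 87.5% in the whole list, 86.8% in cluster 1 and 81.5% in the rest. The median −log10 q was 2.09 in cluster 2, 3.29 in cluster 1 and 2.47 in the rest.

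The strongest peak of cluster 2 covered 89160037 to 89160668. Its fold was 25.8 (21.7 to 30.4), for 142 fragments over a background of 4.05. It also had the smallest p of the cluster. The peaks at 89118301 to 89120420, 88922583 to 88923783, 89188695 to 89189476 and 89233585 to 89234265 had folds of 24 (20.1 to 28.5), 22.5 (19.0 to 26.4), 21.9 (18 to 26.5) and 19.9 (16.6 to 23.6). All 5 intervals overlapped. With the left-out window, the joined set of cluster 2 had 16 strong peaks and a highest fold of 32.6, so the order given here holds for the members only. The widest peak of cluster 2 was not strong. It ran over 3501 bp, from 89005741 to 89009241, and ranked 19th by width in the list. Its fold was 7.40 (5.73 to 9.42).

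**Figure D3:**
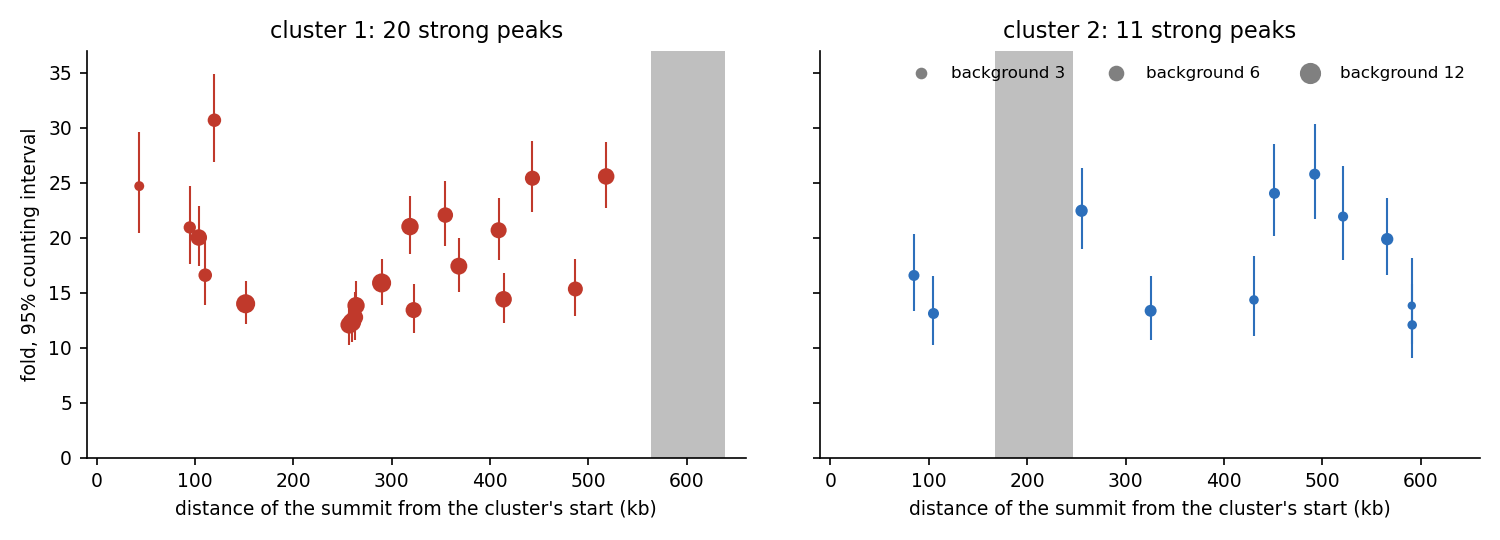
Fold of the 20 strong peaks of cluster 1 and the 11 of cluster 2, with 95% counting intervals, against the distance of the summit from the cluster's start in kb; the size of a dot gives the background and grey marks the left-out windows. Folds and backgrounds overlap between the clusters; backgrounds run from 3.24 to 12 with a median of 8.96 in cluster 1, and from 2.30 to 5 with a median of 4 in cluster 2.

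How the clusters compare in density depended on the fold at which peaks are counted. Over all folds, cluster 1 was 1.20 times as dense as cluster 2. Counting folds of at least 3, cluster 2 had the higher value, 312 per Mb (265 to 363) against 273 (232 to 320) in cluster 1, with 132 (122 to 143) in the rest. At folds of at least 5 the values were 105 per Mb (80.2 to 135) in cluster 1, 80.8 (58.2 to 109) in cluster 2 and 33.1 (28.1 to 38.6) in the rest. The intervals of the 2 clusters overlapped at each of these folds. Both lay above the interval of the rest, but the clusters were selected on their density, so this is a description. Folds under 3 made up 58.0% of cluster 1, 42.3% of cluster 2, 37.5% of the rest and 25.3% of the list.

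**Figure D4:**
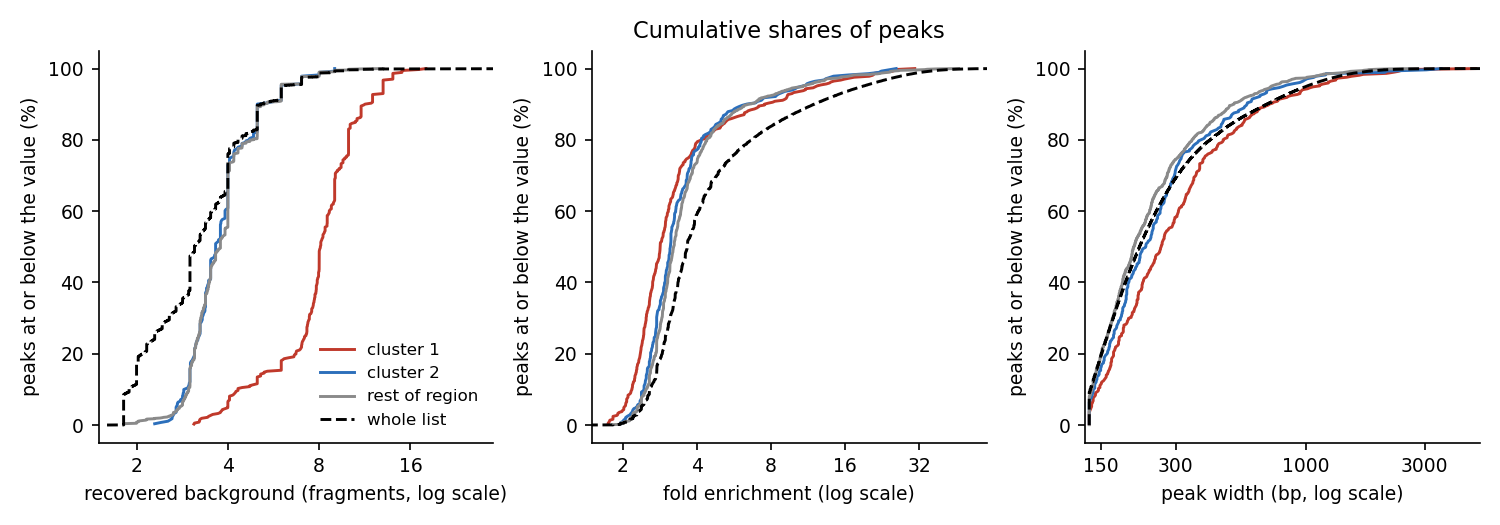
Cumulative shares of peaks by recovered background in fragments, fold enrichment and width in bp, each on a log scale, for cluster 1, cluster 2, the rest and the whole list. The background of cluster 1 is shifted to a median of 8.07 fragments, and the curves of cluster 2 and the rest lie close together in all 3 panels.

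Within classes of background, the shares of strong peaks in the clusters and the rest had overlapping intervals. At a background of at least 5, strong peaks made up 5.56% of 324 members of cluster 1 (3.54 to 8.61) and 8.63% of 139 members of the rest (5.01 to 14.5), and none of 31 in cluster 2 (0 of 31 allows up to 11.0%). From 3.5 to 5 they made up 5.15% of 136 members of cluster 2 (2.52 to 10.2) and 4.54% of 463 of the rest (2.99 to 6.83). Under 3.5 they made up 3.51% of 114 members of cluster 2 (1.37 to 8.68) and 1.90% of 420 of the rest (0.968 to 3.71). Only 47 members of cluster 1 had a background under 5. In the class of at least 5, backgrounds from 5 to 7 were found at 35 members of cluster 1 and 112 of the rest. Like backgrounds were therefore not compared in that class. The list's shares in these classes, from the highest background down, were 9.78%, 10.7% and 9.69%.

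Weak peaks of cluster 1 were somewhat stronger beside strong ones. Within 5 kb of a strong summit, 99 members that were not strong had a median fold of 3.06 (95% interval 2.88 to 3.36), against 2.72 (2.63 to 2.84) for 181 at 5 to 20 kb and 2.64 (2.49 to 2.92) for 71 farther away. The first interval lies above the second and overlaps the third. Their median backgrounds were 8.57, 7.99 and 8.33. Cluster 2 had no such order, with medians of 3.05 (2.73 to 3.44), 3.14 (3.08 to 3.34) and 2.97 (2.81 to 3.14), nor had the rest, with 3.20 (3.02 to 3.34), 3.14 (3.05 to 3.24) and 3.21 (3.11 to 3.29). Neighbouring peaks share fragments and background, so they are not independent of each other.

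The length of the clusters depended on the distance at which summits are joined. With all peaks kept, any joining distance between 12.2 and 14.2 kb gives 1 set for each, and a distance in this range was used along the whole list. Joined within 5 kb, cluster 1 fell into 25 sets, the largest with 70 peaks, and cluster 2 into 27, the largest with 50. Joined within 25 kb, cluster 1 became part of a set of 464 peaks over 937 kb, and cluster 2 of a set of 686 peaks over 1673 kb. The step before the cluster 1 set was 14.2 kb and the steps on either side of the cluster 2 set were 16.2 and 14.7 kb, little more than the joining distance, while 36.1 kb followed cluster 1. At the rounded limits used here, 1 peak of each joined set fell just outside and is counted in the rest. These were the peak with its summit at 85235856 and a fold of 2.93, and the one at 89268312 with a fold of 10.8. The first members inside, at 85241117 and 88668475, had folds of 2.91 and 2.62, and the last, at 85881551 and 89267008, of 3.61 and 3.25.

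The 5 members of highest fold lay outside both clusters. With its left-out window, the joined set of cluster 2 reached a fold of 32.6, above the fifth of these, so this holds for members only. The peak from 88636464 to 88637472, before the start of cluster 2, had a fold of 46.2 (40.3 to 52.8) and ranked 174th in the list. It was followed by 87798701 to 87800163 with a fold of 37.7 (32.7 to 43.3), 88600512 to 88601649 with 34.4 (30.1 to 39.2), 87425055 to 87426741 with 33.7 (29.4 to 38.4) and 88454468 to 88455203 with 30.9 (27.4 to 34.8). All 5 were in 16q24.2. The last of these had the smallest p of all members, for 271 fragments over a background of 7. The intervals of the second to the fifth overlapped, and that of the first overlapped the second. The highest fold of cluster 1, 30.7 (26.9 to 34.9), had an interval that overlapped those of the second to the fifth. Their order was therefore not resolved. The peak at 87798701 had no other summit within 5 kb. Strong peaks of the rest had a median of 2 neighbours within that distance, against 6 in cluster 1 and 4 in cluster 2. Members that were not strong had 3, 7 and 6, so these numbers follow the density of all peaks.

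The rest was not evenly filled. Joining at the same distance, with the windows kept, gave 29 further clusters of at least 10 peaks, of which 16 had a strong peak and 13 had none. Their strongest peaks ran from a fold of 4.25 to 46.2, with a median of 13.2. The largest 3 were the cluster from 88440775 to 88652441, with 113 peaks at 534 per Mb, the cluster from 87838091 to 88017273, with 75, and the one from 87623263 to 87761534, with 59. The first of these had a median background of 3.38. A short cluster from 86526346 to 86557229 was denser than both long ones, with 23 peaks at 751 per Mb, and had 1 strong peak with a fold of 15.3.

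Long stretches of the rest held peaks but no strong one. Between the strong summits at 86609520 and 87425816, 816 kb apart, lay 138 members with a median fold of 3.11 and a highest of 7.71. Between the strong summits at 85833237, in a left-out window, and 86543167, 710 kb apart, lay 106 members with a median fold of 3.17 and a highest of 8.51. Their median backgrounds were 3.37 and 3.92. The longest distance between neighbouring members was 78.7 kb, from 88179261 to 88257953. Outside the clusters, 16q24.1 held 178 peaks per Mb, 16q24.2 251 and 16q24.3 223, and strong peaks made up 3.49%, 3.81% and 5.29%. The last member had its summit at 90148570, 206 kb before the end of the chromosome.

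Among the 161 joined sets of at least 50 peaks in the whole list, the sets of cluster 1 and cluster 2, the latter with 322 peaks, ranked 2nd and 3rd by number of peaks and by length. Both include the left-out windows. The cluster 1 set had the highest median background, 8, with 6.75 the highest among the others, and the lowest median fold, 2.88, against a median of 3.27 over the sets. It had 21 strong peaks by fold, the second highest number together with another set, and 36 by p, the highest. Cluster 2 lay near the middle in background, with a median of 3.73 beside 3.75 over the sets. Its share of strong peaks, 4.97%, and that of cluster 1, 5.36%, lay close to the median over the sets, 5.26%. These sets were ranked without a test.

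**Figure D5:**
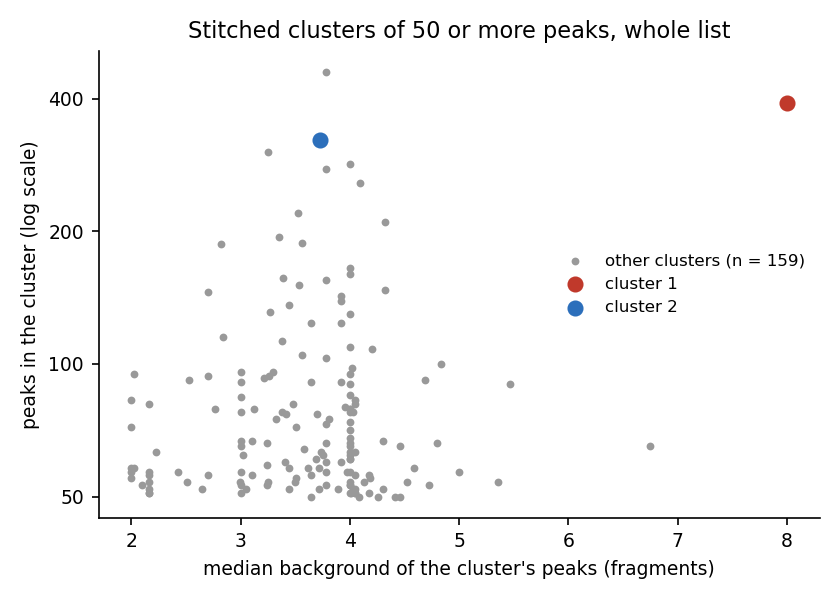
Number of peaks (log scale) against the median background in fragments for the 161 joined sets of at least 50 peaks in the whole list, with cluster 1 and cluster 2 coloured. Cluster 1 lies at a median background of 8 and cluster 2 lies among the others at 3.73.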

How the data were processed

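Per the labels, chromatin of T47D nuclei was sonicated and ELF5 pulled down in 3 replicates, beside 1 input; the protocol text names antibodies to other factors only. Per the file headers, the list is on hg19 and named for 1-3. IDR stands in the name under which the list was deposited, and neither says which replicates were used. Aligner, peak caller and use of the input: not given in the sources used here.

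In all 115384 rows the deposited score equals the whole part of 10 times −log10 p. Folds, a ratio as judged from the values, and −log10 p and −log10 q were taken as the authors deposited them. Background and pileup were solved from fold and p, taking whole fragments scaled by 0.910, 1 added to both, and Poisson p-values; each of the 1674 members had 1 solution within 0.001 of its −log10 p. They are inferred values. Recovery was tested on data simulated with the same formula, which cannot show that the deposited values were made in this way. Intervals are Wilson for shares, exact Poisson for counts and folds (background fixed) and order statistics for medians, all at 95%. They treat peaks as independent.

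Peaks named are the 5 of highest fold, the smallest p and the widest of each group, and, in the rest, the strongest of joined clusters of at least 10 peaks, given as a summary and by examples; others were chosen after seeing their values. Members and lists were chosen with earlier results of these data known. Bands came from circlize 0.4.16 in R 4.3.3; values were computed with pandas 2.3.3, scipy 1.17.1, statsmodels 0.14.6 and numpy 2.4.6 in Python 3.11.15 and drawn with matplotlib 3.10.9. No genome or annotation of hg19 was used. Positions are counted from 1.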

Additional observations from a re-analysis of the deposited data

How the results depend on the processing

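Of 55 alternative values, 26 left the 95% interval of the reported value (for counts, a factor of 1.5), and no ratio of a cluster's density to the rest changed direction. The clusters were selected on their density in this same list, so that direction was largely set beforehand and is a description. The density ratio of cluster 1 to cluster 2 was not among the alternative values. Its direction turned at folds of at least 3 and turned back at folds of at least 5, with overlapping intervals at both. With the strongest 5% and 20% by fold, the shares of strong peaks were 2.43% and 11.6% in cluster 1, 1.78% and 9.96% in cluster 2 and 1.76% and 9.98% in the rest. By p, the share in cluster 1 was 9.43%, against 5.38% in the rest and 10.0% in the list. Among peaks with q under 0.05, the median folds of cluster 1, cluster 2 and the rest were 2.98, 3.34 and 3.43, and the median spacings 1092, 1467 and 2743 bp. In the highest 50% of folds these were 6.25, 4.98 and 4.76, and 3124, 3455 and 8003 bp, so the order of the median folds turned round; the density ratio of cluster 1 to the rest was 2.32, and 13 clusters of at least 10 peaks were left, against 32 with all members. Fewer peaks and higher folds follow from these choices. The ratio was 4.13 for strong peaks only. Joining within 25 kb gave 15 clusters. Without its raised stretch, an alternative chosen after seeing the data, cluster 1 had a median fold of 3.13, a median spacing of 1145 bp and a density ratio of 2.28. Holding each fold at a lower background, also added, could hardly move a ratio by its construction and shows nothing. Keeping the 3 windows moved no value out of its interval. No paired analysis was possible because replicates are not separated in the list, and leaving out replicates could not be done for the same reason. Low pileups limit the ranking of single peaks.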
